A study of Homo sapiens with 56 samples.

Results

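The MJ cell line under cobomarsen was examined at day 8 against day 4 of culture. These are 8 of the 56 arrays of the series, 4 at each day, and they were chosen by their labels alone. Cobomarsen, labelled MRG-106, is a synthetic oligonucleotide made to block miR-155. MJ is an established cutaneous T cell lymphoma line that carries the retrovirus HTLV-1. The groups used were MJ with cobomarsen at day 8 and at day 4, HuT102 with cobomarsen at day 8 and at day 4, MyLa with cobomarsen at day 8 and at day 4, and untreated MJ at day 8 and at day 4, with 4 arrays each. HuT102 is another T cell lymphoma line with HTLV-1, and MyLa is a cutaneous T cell lymphoma line.

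Oligonucleotide was put into the culture medium, at a concentration that is not given in the sources used here. At day 4 every well was split, by the dilution that brought untreated cells back to their starting density. For wells with cobomarsen the new medium again held the inhibitor. Fresh medium was added later. A day 8 array therefore differs from a day 4 array in the length of exposure, the passage, the medium and the harvest, and these cannot be told apart. The same day difference in untreated MJ wells was tested beside it, and so was the difference between the 2 day changes. The labels do not say whether the arrays of a group came from separate cultures, so the p-values measure the spread between arrays, which may be technical. All arrays were of untreated or cobomarsen wells, so a response to oligonucleotide uptake as such and a response to the block of miR-155 cannot be told apart.

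A microRNA guides a silencing complex to messenger RNAs that pair with its seed, the bases near its 5′ end, and lowers their stability or translation. miR-155 is made from the host transcript MIR155HG and is abundant in activated lymphocytes and in several lymphomas, where its known targets include brakes on cytokine and phosphoinositide signalling. An inhibitor of complementary sequence holds the microRNA and frees its targets. The mature sequence is shown because it is what the inhibitor binds, with the seed (bases 2 to 8) in capitals, from RefSeq on GRCh38.p14 at chr21:25573983-25574006 on the plus strand.
hsa-miR-155-5p: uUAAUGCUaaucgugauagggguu

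Values are array signal on the linear MAS5 scale. They were analysed as log2(signal + 16), so that a fold of a low gene is understated. A gene was tested if it averaged at least a signal of 74.0, the median of the whole table, on that scale across the arrays of the comparison, and was called at an adjusted p under 0.05 from limma with Benjamini-Hochberg adjustment. Between day 8 and day 4 with cobomarsen, 560 of 12034 genes were called (4.65%). Of these, 245 were higher (2.04%) and 315 lower (2.62%) at day 8, and 34 had changed at least 2-fold. Changes were thus mostly modest in size, and the median over all genes tested was -0.02 on the log2 scale. All arrays of day 8 lay above all arrays of day 4 for 8.3% of the genes tested, and below them for 10.3%. The count of called genes was 288 without day 4 array 3, 311 without day 8 array 3, 337 without day 8 array 1 and 351 without day 8 array 2. It was 1400 in a fit of the MJ arrays alone and 1459 in a fit of the 8 arrays alone.

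In untreated MJ, 189 of 11845 genes were called between the same days (1.6%), 131 higher (1.11%) and 58 lower (0.49%). This count was 96 without untreated day 4 array 2, 121 without untreated day 8 array 1, 124 without untreated day 4 array 1 and 490 in a fit of the MJ arrays alone. A total of 45 genes were called in both, which is 8.04% of the cobomarsen calls and 23.8% of the untreated calls. Of the 45, 28 were higher and 13 lower at day 8 in both conditions, and 4 had opposite directions. The day change with cobomarsen minus the day change in untreated wells was itself tested, and differed for 156 of 11929 genes (1.31%), 43 positive (0.36%) and 113 negative (0.947%). That count was 58 when arrays were centred on their median, 421 in a fit of the MJ arrays alone, and 66 to 132 when 1 array was left out. The arrays that took it under 104 were cobomarsen day 8 array 3 (86), cobomarsen day 4 arrays 3 and 4 (66 and 100), untreated day 8 arrays 1, 2 and 3 (98, 91 and 78) and untreated day 4 array 1 (74).

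Arrays of 1 MJ group correlated at 0.962 to 0.973. The upper quartile of signal was 446 to 454 in the cobomarsen arrays of day 8 and 430 to 444 in those of day 4, with no overlap, while the 3′ to 5′ ratios of GAPDH and ACTB overlapped. T cell markers were present in both groups: 9 of 10 with a probe set had a mean signal of at least 74.0, and CD28 had 56.8 ± 27.5 at day 8 and 57.9 ± 37.9 at day 4 (SD, n = 4 each). Their summed signal was 54762 to 59141 at day 8 and 60681 to 65943 at day 4, and TRBC1 was the 1 called marker. The summed signal of 5 fibroblast markers was 5678 to 6108 at day 8 and 4198 to 4640 at day 4, and none was called. COL1A1 averaged 2636 at day 8 and 1902 at day 4, COL3A1 2800.4 and 2249, and COL1A2 314 and 126 (adjusted p = 0.0931), while DCN was at 66.0 and 79.5 and LUM at 23.2 and 17.4. No other marker list had a called gene. Summed myeloid signal was 899.7 to 975 at day 8 and 985 to 1158 at day 4, with MPO at 765 and 951, CSF1R at 137 and 85.2, and CD14 and LYZ under 74.0. The sums of the CD8, B cell, NK, keratinocyte and erythroid markers overlapped between days. Above 74.0 at both days were CD79A of the B cell list (289.9 at day 8 and 283 at day 4), NCR1 of the NK list (189 and 163), KRT10 of the keratinocyte list (1865 and 2101) and HBB of the erythroid list (247 and 306). The part of the array level and of these markers in the gene results was not tested.

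The transcript that yields miR-155 and the targets listed for it were examined first. The probe set of the host transcript carries the symbols MIR155 and MIR155HG and was tested by exact permutation. Its signal was 16003, 14572, 15051 and 15619 at day 8, against 13166, 11143, 11191 and 10496 at day 4. All 4 arrays of day 8 lay above all 4 of day 4, by 0.42 on the log2 scale (exact two-sided p = 0.0286, the smallest that 70 splits allow). In untreated MJ the host signal was 19956 ± 496 at day 8 and 14658 ± 487 at day 4 (SD, n = 4 each), a difference of 0.44. The host transcript was thus higher at day 8 with and without the inhibitor, and the difference between these changes was not tested.

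Of 50 listed miR-155 targets, 46 had a probe set and 42 were tested. PIK3R1 rose and MSH6 fell at day 8, and the other 40 were not called. A share of 2 in 42 is near the 4.65% called among all genes tested, so the count says nothing particular about the targets. The median change of the 42 was 0.04, against -0.02 over all genes. PIK3R1, a regulatory subunit of phosphoinositide 3-kinase, had 3779, 3786, 3584 and 3650.4 at day 8, against 3114, 2879, 3291 and 3058 at day 4 (log2 change 0.26 ± 0.08 (SE), adjusted p = 0.0369), with no overlap. This call was lost in 9 of 17 alternatives. MSH6, a DNA mismatch repair protein, had 3315, 3256, 3271 and 3552 at day 8, against 3946, 4279, 4214 and 4078 at day 4 (log2 change -0.30 ± 0.08 (SE), adjusted p = 0.014). Commonly cited targets did not pass the test. BACH1, a repressor of heme and redox genes, had 620.3 ± 80.7 at day 8 and 586 ± 66.2 at day 4. INPP5D, the lipid phosphatase SHIP1, had 1171 ± 57.9 at day 8 and 1316 ± 64.3 at day 4. SOCS1, a feedback inhibitor of cytokine receptors, had 5286 ± 343 at day 8 and 4522 ± 300.3 at day 4 (SD, n = 4 each). In untreated MJ, SMAD5, a transcription factor of the BMP pathway, was the 1 target called, with a log2 change of 0.71, adjusted p = 0.0023.

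Of the 32 gene lists examined, that of S phase entry and DNA replication had the most genes called. Of its 36 tested members, 15 were lower at day 8 and none was higher, against 2.62% of all genes called lower. Their median change was -0.24, and 31 of the 36 were negative. In untreated MJ limma called none of the 36, 4 had an unadjusted p under 0.05, all higher, and the median was 0.04. Over all genes tested in untreated MJ, 1419 of 11845 had an unadjusted p under 0.05. The day 8 arrays lay wholly under the day 4 arrays for 22 of the 36 members, against 10.3% of all genes tested. The count of called members was 11 to 15 when 1 array was left out.

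The replicative helicase consists of the MCM ring with CDC45 and the GINS complex. MCM5 had 3752, 4234, 3846 and 4225 at day 8, against 5280.0, 5832, 5759 and 5729 at day 4, and fell by 0.49 ± 0.06 (SE), adjusted p = 7.39e-07. MCM2 had 4714, 5052, 4603 and 5126 at day 8, against 5845, 6891, 6900.1 and 6345 at day 4, and fell by 0.41 ± 0.07 (SE), adjusted p = 3.64e-05. In neither gene did the days overlap. CDC45, which joins the ring when origins fire, had 1087, 1141, 1098 and 1189.5 at day 8, against 1443, 1428, 1675 and 1635 at day 4, and fell by 0.44 ± 0.10 (SE), adjusted p = 0.00233. GINS2, a GINS subunit, had 1759, 1954, 1794 and 1853 at day 8, against 2448, 2605, 2657 and 2534 at day 4, and fell by 0.47 ± 0.08 (SE), adjusted p = 4.5e-05. Every array of day 8 was again lower than every array of day 4. MCM6 fell by 0.42 ± 0.11 (SE), adjusted p = 0.0121, a call lost without day 4 array 3. MCM7 and MCM4, 2 further ring subunits, had log2 changes of -0.38, adjusted p = 0.00811 and -0.29, adjusted p = 0.0132.

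The other called members act in loading the ring, making nucleotides or copying DNA. ORC1, a subunit of the complex that marks origins, had 359, 401, 375 and 458 at day 8, against 511, 593, 708 and 551 at day 4, and its fall of 0.55 ± 0.13 (SE), adjusted p = 0.00475 was the largest of the list. RRM2, the small subunit of ribonucleotide reductase, changed by -0.41, adjusted p = 0.000837. Thymidine kinase TK1 changed by -0.38, adjusted p = 0.00732 and thymidylate synthase TYMS by -0.30, adjusted p = 0.000724. These 3 enzymes supply deoxynucleotides. POLA1, the catalytic subunit of the priming polymerase, changed by -0.28, adjusted p = 0.0101, and POLE2, a subunit of the leading strand polymerase, by -0.28, adjusted p = 0.0383. RFC4, which loads the sliding clamp, changed by -0.25, adjusted p = 0.0183. The clamp itself, PCNA, had 10365 ± 389 at day 8 and 11861 ± 481 at day 4 (SD, n = 4 each), a change of -0.19, adjusted p = 0.0361. The calls of PCNA and POLE2 were lost in 9 of 17 and 7 of 17 alternatives.

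**Figure D1:**
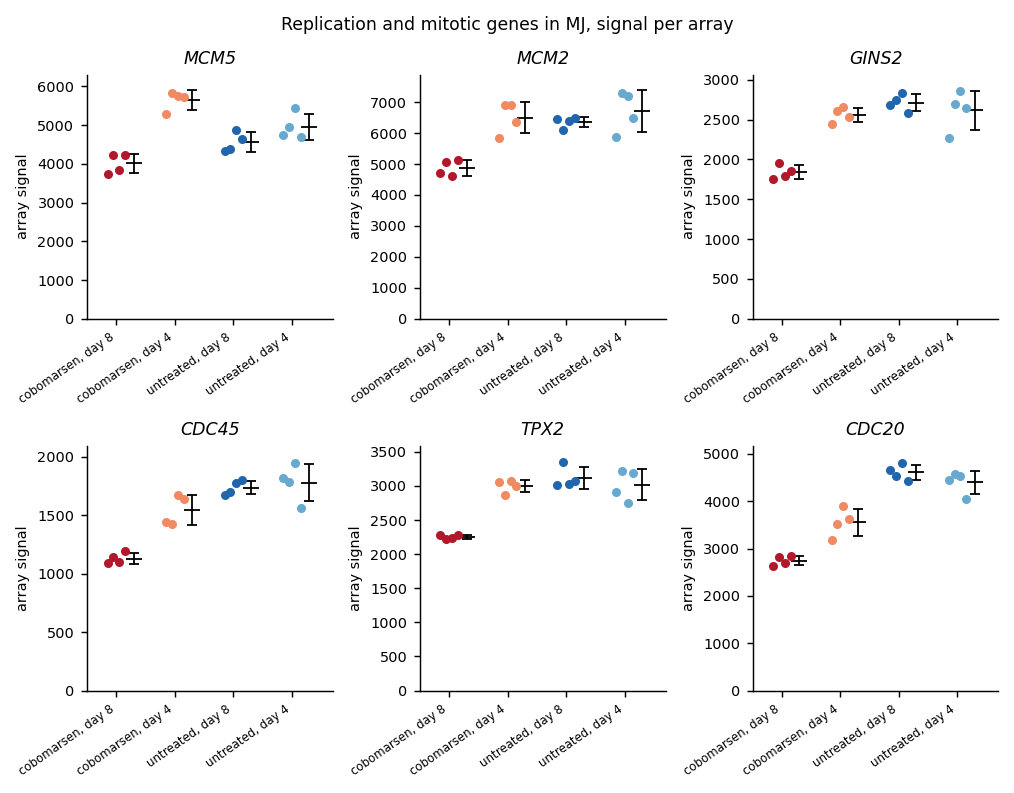
Signal of 4 replication genes (MCM5, MCM2, GINS2, CDC45) and 2 mitotic genes (TPX2, CDC20) in each MJ array, on a linear axis from 0, with 1 point per array and the mean ± SD in black (n = 4 per group). In all 6 panels the 4 cobomarsen arrays of day 8 lie below the 4 of day 4, while the arrays of the untreated groups overlap between days.

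Against the untreated wells, the day change was more negative with cobomarsen for 34 of 36 replication genes, 7 of which were called, with a median of -0.30. Over all genes tested for this difference, 6423 of 11929 were negative and 0.947% were called negative. GINS2 had 2714 ± 105 in untreated wells of day 8 and 2617 ± 247 in those of day 4 (SD, n = 4 each), and its day change differed by -0.53 ± 0.11 (SE), adjusted p = 0.00334 from that of untreated wells. For MCM5 the difference was -0.37, adjusted p = 0.027, and for MCM2 it was -0.34, adjusted p = 0.0458. The other 4 called were CDK2, a kinase that starts S phase, RFC4, POLA1 and TYMS. CDK2 itself was not called between days with cobomarsen, with 1996 ± 119 at day 8 and 2272 ± 115 at day 4 (SD, n = 4 each).

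Transcription of many replication genes is governed by E2F factors, which bind promoter sites close to the gene start. Promoters of the RefSeq table for GRCh38.p14, each from 250 bases before to 50 after the gene start, were searched on both strands for TTTGGCGC or TTTCCCGC, 2 forms of the E2F site, for TTTGAA and for CCAAT. None of these motifs contains another. A promoter was found for 31 of the 36 tested members, and 16 of them held a match (51.6%). Among all 27305 promoters the share was 2.31%, and among promoters of 9761 tested genes it was 3.75%. Of the 13 called members with a promoter, 7 held a match. CCAAT, a common promoter element, was in 61.3% of the promoters of tested members and in 37% of those of all tested genes. An E2F match was in 8.37% of 263 promoters of all genes called lower, and in 1.52% of 198 promoters of all genes called higher. For CCAAT these shares were 44.1% and 32.8%. A match describes the letters and not a bound site, and members of this list are known for such sites.

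Windows of 26 bases from 6 of the 7 called genes with a match are shown because these genes fell and hold it. Each is written 5′ to 3′ along its gene with the match in capitals. The remaining gene was left out by the rule for windows, which skipped a single chromosome and any window that reached past the gene start. GINS2 is from chr16:85688969-85688994, MCM6 from chr2:135876579-135876604 and chr2:135876517-135876542, and MCM7 from chr7:100101568-100101593, all on the minus strand. PCNA is from chr20:5126665-5126690 on the minus strand, TYMS from chr18:657605-657630 and POLA1 from chrX:24693772-24693797, both on the plus strand.
GINS2: ctcgccgtgGCGGGAAAacggcggcc
MCM6, farther: ggctttgcaTTTGGCGCgaaatccct
MCM6, nearer: ttggtcaggTTTGGCGCgaaatctcc
MCM7: gctcggaccGCGGGAAAcccggcgcc
PCNA: gcgtcagggGCGGGAAAaggcgtgcg
TYMS: gggacggccGCGGGAAAaggcgcgcg
POLA1: catcacaggGCGCCAAAcgcgcgtcc

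Genes of mitosis were the next largest set of calls. Of 38 tested members 8 were lower at day 8, none was higher, and the median change was -0.21. Of all genes tested, 2.62% were called lower. The called genes were TPX2, CDC20, BIRC5, UBE2C, DLGAP5, CCNB2, NUSAP1 and BUB1. TPX2, a spindle assembly factor, had 2280.0, 2224, 2241 and 2278 at day 8, against 3053, 2871, 3069 and 3001 at day 4, and fell by 0.41 ± 0.08 (SE), adjusted p = 0.000994. CDC20, an activator of the ubiquitin ligase that starts anaphase, had 2639, 2815, 2699 and 2843 at day 8, against 3188, 3521, 3892 and 3617 at day 4, and fell by 0.37 ± 0.07 (SE), adjusted p = 0.00105. The days did not overlap for either gene. BIRC5, the chromosomal passenger survivin, had 2578 ± 64.5 at day 8 and 3317 ± 248 at day 4 (SD, n = 4 each), and UBE2C, a ubiquitin-conjugating enzyme of mitotic exit, had 5089 ± 117 at day 8 and 6228 ± 425 at day 4. The count was 5 without day 8 array 1, without day 8 array 3, without day 4 array 3 and without day 4 array 4, and 18 in a fit of the MJ arrays alone. The calls of DLGAP5 and BUB1 were lost in 8 of 17 and 9 of 17 alternatives.

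In untreated MJ the calls in this list had the other direction: 5 of 38 members were higher at day 8 and none was lower. Over all genes these shares were 1.11% and 0.49%, and the median of the list was 0.17. The 5 were CENPE, CENPF, TTK, BUB1B and PRC1, which act at kinetochores, in the spindle checkpoint or in the central spindle. All 38 members had a more negative day change with cobomarsen than in untreated wells, with a median of -0.38, and 7 were called. Of all genes tested for this difference, 6423 of 11929 were negative, and 0.947% were called negative. BUB1B had 3251, 3002, 2853 and 3165 at day 8, against 3349, 3346, 3625 and 3567 at day 4 with cobomarsen, a change of -0.18, adjusted p = 0.0713, which was not called. In untreated wells BUB1B had 5075 ± 239 at day 8 and 4141 ± 221 at day 4 (SD, n = 4 each), and the difference of the day changes was -0.47 ± 0.08 (SE), adjusted p = 0.00073. MKI67, which encodes the proliferation antigen Ki-67, had 1336 ± 106 at day 8 and 1676 ± 143 at day 4 with cobomarsen and was not called (-0.32, adjusted p = 0.065). A different promoter motif marked the mitotic list: TTTGAA, the core of the cell cycle homology region, was found in 20 of 32 promoters of tested members (62.5%), against 10.3% of the promoters of all tested genes. CCAAT was in 71.9% of these 32 promoters, against 37%.

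**Figure D2:**
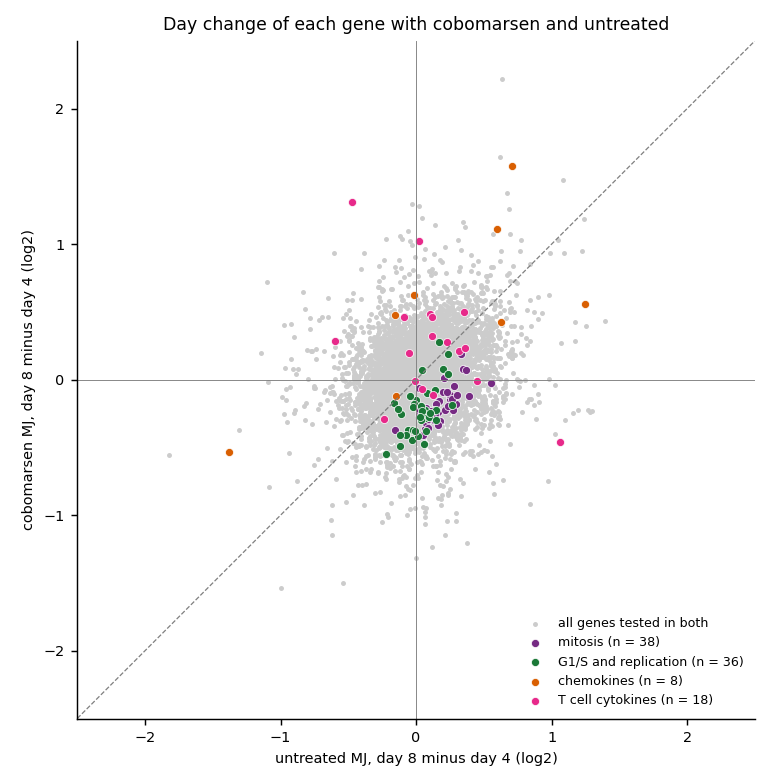
Day 8 minus day 4 on the log2 scale for each gene tested in both conditions, with untreated MJ on the x axis, cobomarsen MJ on the y axis and equal change on the dashed line. The members of the replication and mitotic lists lie below the dashed line for the most part, and mitotic genes lie mostly right of 0 on the x axis.

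Of 18 tested inhibitors of cyclin-dependent kinases and markers of quiescence, and of 19 tested p53 targets, limma called none between days with cobomarsen, and 4 and 7 had an unadjusted p under 0.05. Their median changes were 0.01 and 0.02. Over all genes tested, 2109 of 12034 had an unadjusted p under 0.05. CDKN1A, which encodes the inhibitor p21, had 3875 ± 309 at day 8 and 3340.5 ± 149 at day 4 (SD, n = 4 each), a change of 0.21, adjusted p = 0.119. Among 16 tested cytosolic ribosomal protein genes none was called, 6 had an unadjusted p under 0.05, all lower, and all 16 changes were negative, with a median of -0.17 that became 0.0015 under quantile normalization. None of 12 tested BCL2 family genes was called, and 1 had an unadjusted p under 0.05. Of 28 tested genes of oxidative phosphorylation none was called, 2 had an unadjusted p under 0.05, and 25 changes were negative. Their median of -0.08 became -0.01 under quantile normalization, where 1 gene was called.

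Chemokine genes were among the largest rises. Of 9 tested members of the list, 3 were higher at day 8 (CCL17, CCL1 and CCL5), none was lower, and the median change was 0.54, against 2.04% of all genes called higher. CCL17, a ligand of the skin homing receptor CCR4, had 1034, 847, 1069 and 960.4 at day 8, against 291, 396, 229 and 377 at day 4 (log2 change 1.58 ± 0.17 (SE), adjusted p = 2.82e-09). This is a 2.98-fold rise on the scale used, and the days did not overlap. CCL1, a ligand of CCR8, had 3742, 3272, 3760.3 and 3601 at day 8, against 1462, 1589, 1845 and 1734 at day 4 (log2 change 1.11 ± 0.14 (SE), adjusted p = 9.44e-08). CCL5, an attractant of T cells and monocytes, had 21806, 22519, 23823 and 23298 at day 8, against 16966, 16135, 15891 and 16707 at day 4 (log2 change 0.48 ± 0.11 (SE), adjusted p = 0.00627). The days were again fully apart for both. CCL2, a ligand of CCR2 outside the list, had 295, 236, 206 and 203 at day 8, against 14.5, 38.4, 62.6 and 46.5 at day 4. Its mean at day 4 was under 74.0, so it entered the test only through its level at day 8 and is given here as signals with no test.

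For 2 of the 3 called members, the day change differed between cobomarsen and untreated wells. CCL17 rose in untreated MJ as well, to 497 ± 42.9 at day 8, against 299 ± 30.7 at day 4 (SD, n = 4 each), but its day change was larger with cobomarsen by 0.87 ± 0.24 (SE), adjusted p = 0.0445. CCL1 rose to 10772 ± 938 in untreated wells at day 8, against 7114 ± 344 at day 4, levels above those with cobomarsen on both days, and the difference of its day changes did not pass the test (0.52, adjusted p = 0.252). CCL5 had 13806 ± 900.4 in untreated wells of day 8 and 15374 ± 603 in those of day 4 and was not called there, and its day changes differed by 0.63 ± 0.16 (SE), adjusted p = 0.0285. CXCL13, a chemokine of B cell follicles, was not called with cobomarsen (0.56, adjusted p = 0.075) and rose in untreated wells (1.25, adjusted p = 3.87e-05), and the difference of its day changes did not pass the test (-0.69, adjusted p = 0.305).

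Among cytokines, 5 of 18 tested genes were higher at day 8 and none was lower, with a median change of 0.25, against 2.04% of all genes called higher. Without the filter on low genes, 5 of 30 were called, all higher. OSM, which encodes oncostatin M of the interleukin-6 family, had 1257, 1238, 1305 and 1177 at day 8, against 622, 652, 546 and 600.4 at day 4 (log2 change 1.02 ± 0.20 (SE), adjusted p = 0.000788). IL3, a growth factor of myeloid progenitors, had 263, 227, 185 and 141 at day 8, against 88.8, 37.7, 91.1 and 78.8 at day 4 (log2 change 1.31 ± 0.28 (SE), adjusted p = 0.00205), a call lost when 1 was added before the logarithm. The days were apart for both. LTA, or lymphotoxin alpha, had 8944, 7533, 8443 and 8539.7 at day 8, against 5693, 6143, 6082 and 5956 at day 4 (log2 change 0.48 ± 0.08 (SE), adjusted p = 0.000118). LTB, its membrane partner, had 846, 875, 779 and 823 at day 8, against 658, 539.8, 550.2 and 593 at day 4 (log2 change 0.50 ± 0.11 (SE), adjusted p = 0.00257), while the second tested probe set of LTB changed in the opposite direction. TNF had 853, 816, 915 and 760.0 at day 8, against 643, 687, 627 and 699.6 at day 4 (log2 change 0.32 ± 0.09 (SE), adjusted p = 0.028). These 3 tumor necrosis factor family genes lie side by side on chromosome 6. The call of TNF was lost in 5 of 17 alternatives, all of which left out an array.

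Of 22 cytokines tested in untreated wells, 3 were called higher and 1 lower at day 8, against 1.11% and 0.49% of all genes. None of these 4 was called with cobomarsen, where IL26 was too low to be tested. IFNG, the main effector cytokine of T helper 1 cells, had 226, 150.1, 144 and 133 at day 8, against 203, 166, 264 and 293 at day 4 with cobomarsen, with overlapping arrays (log2 change -0.46 ± 0.22 (SE), adjusted p = 0.264). In untreated wells IFNG had 3496 ± 385 at day 8 and 1662 ± 129 at day 4, a rise of 1.06 ± 0.22 (SE), adjusted p = 0.00371. The day changes differed by -1.52 ± 0.31 (SE), adjusted p = 0.00439. TNFSF4, which encodes OX40 ligand, had 1274 ± 93.0 at day 8 and 1284 ± 79.8 at day 4 with cobomarsen, against 11516 ± 233 at day 8 and 8442 ± 465 at day 4 in untreated wells (SD, n = 4 each). TNFSF4 rose in untreated wells only, and the day changes differed by -0.46 ± 0.11 (SE), adjusted p = 0.0194. IL26 had 55.0 ± 18.9 at day 8 and 76.7 ± 33.8 at day 4 with cobomarsen, against 679 ± 62.2 and 264 ± 62.5 in untreated wells of day 8 and day 4, and it was called in untreated wells (adjusted p = 0.000616). IL5, a T helper 2 cytokine, fell in untreated wells to 2723 ± 91.1 at day 8, against 4136 ± 274 at day 4, and was not called with cobomarsen, where it had 1675 ± 128 at day 8 and 1376 ± 118 at day 4. The day changes of IL5 differed by 0.88, adjusted p = 0.0385.

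**Figure D3:**
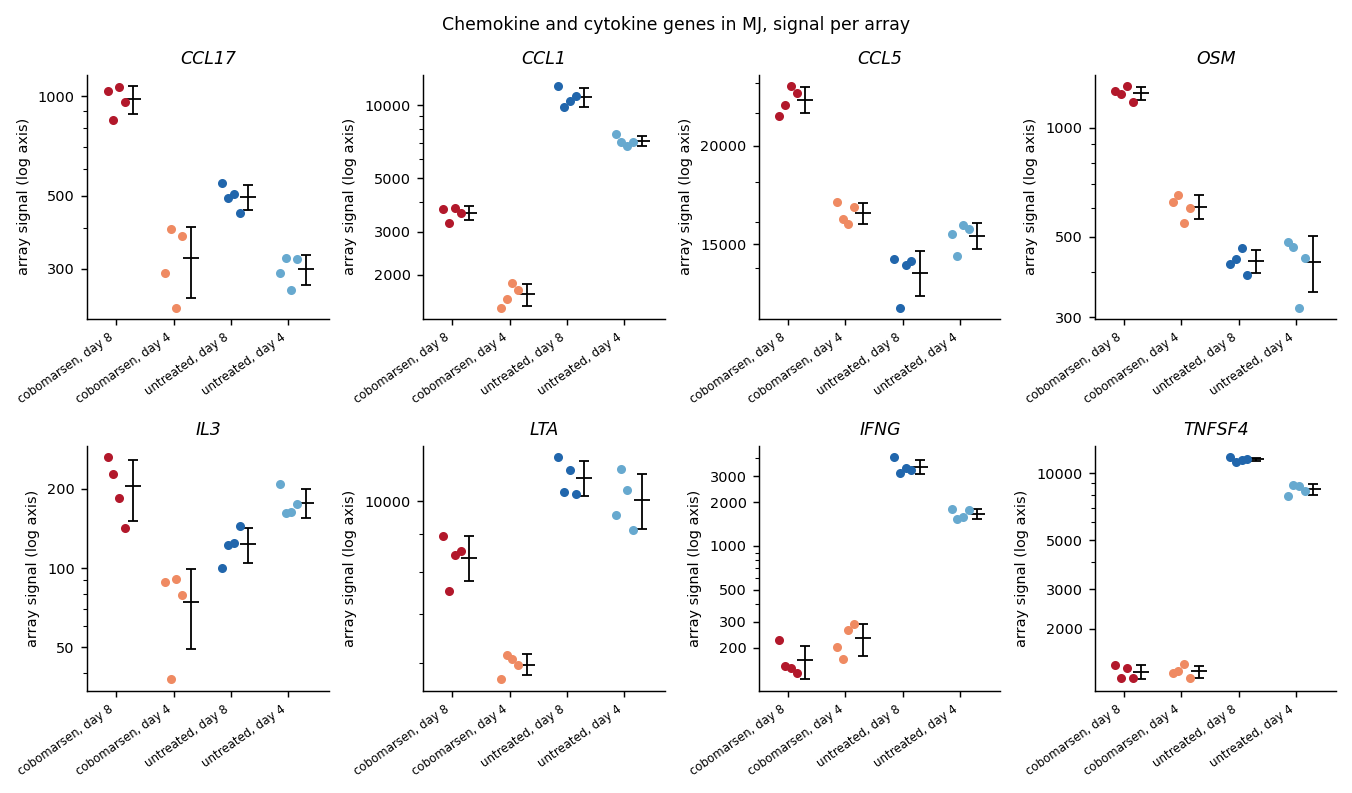
Signal of 8 chemokine and cytokine genes in each MJ array on log axes that do not start at 0, with 1 point per array and the mean ± SD in black (n = 4 per group). CCL17, CCL1, CCL5, OSM, IL3 and LTA are higher at day 8 than at day 4 with cobomarsen, while IFNG and TNFSF4 differ between days in untreated wells and overlap with cobomarsen.

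Receptors for these ligands changed in some cases. Of 22 tested cytokine receptors 1 was called, a share near the 4.65% of all genes tested. It was CSF2RB, the common chain of the receptors for interleukin-3, interleukin-5 and GM-CSF. CSF2RB had 7624, 6894, 7433 and 7562 at day 8, against 6185, 6227, 6165 and 6209.9 at day 4 (log2 change 0.25 ± 0.08 (SE), adjusted p = 0.0407), a call lost in 9 of 17 alternatives. IL3RA, the chain that gives specificity for interleukin-3 and stands outside that list, had 199, 260.1, 374 and 309 at day 8, against 63.2, 58.6, 104 and 96.1 at day 4 (log2 change 1.64 ± 0.28 (SE), adjusted p = 0.000118). The ligand IL3 and both chains of its receptor were thus higher at day 8, and IL3RA had 176 ± 51.5 at day 8 and 109 ± 32.7 at day 4 in untreated wells, where it was not called. Of 18 tested chemokine receptors and homing genes, 2 were higher and 2 lower, against 2.04% and 2.62% of all genes tested. CCR6, the receptor for CCL20, had 293, 194, 179 and 129 at day 8, against 59.5, 51.8, 62.1 and 45.6 at day 4. Its day 4 mean was under 74.0, so CCR6 entered the test only through its level at day 8. ITGB1, the integrin beta 1 chain, had 7038 ± 357 at day 8 and 5529 ± 315 at day 4 (log2 change 0.35 ± 0.08 (SE), adjusted p = 0.00361). SELPLG, the selectin ligand PSGL-1, fell by 0.36 ± 0.10 (SE), adjusted p = 0.021, and in untreated wells by 0.42 ± 0.10 (SE), adjusted p = 0.0106.

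Few T cell identity genes were called. Of 22 tested genes of the T cell receptor and costimulation none was called, and 5 had an unadjusted p under 0.05. Over all genes tested, 2109 of 12034 had such a p. Of 27 lineage factors 1 was called, and over all genes tested the share was 4.65%. TRBC1, a constant segment of the T cell receptor beta chain, stands outside both lists. TRBC1 had 1204, 999, 1263 and 1221 at day 8, against 2112, 2072, 2284 and 2003 at day 4, and fell by 0.85 ± 0.09 (SE), adjusted p = 2.82e-09. All 3 of its probe sets were called lower. In untreated wells TRBC1 had 4885 ± 139.6 at day 8 and 4162 ± 254 at day 4 (SD, n = 4 each), and the day changes differed by -1.08 ± 0.12 (SE), adjusted p = 9.99e-08. CD3D and CD3E, signalling chains of the same receptor, had 12751 ± 1185 and 1480.1 ± 34.6 at day 8, against 13772 ± 914 and 1594 ± 91.8 at day 4, and neither was called. BCL11B, a transcription factor that maintains T cell identity, had 722, 637, 557 and 641 at day 8, against 793, 799, 995 and 1124 at day 4, and fell by 0.52 ± 0.15 (SE), adjusted p = 0.0275, a call lost in 4 of 17 alternatives. ITGAE, the CD103 integrin chain of epithelial T cells, had 2228, 2087, 2059 and 2296 at day 8, against 2846, 2726, 2759 and 2756 at day 4, and fell by 0.35 ± 0.06 (SE), adjusted p = 6.57e-05.

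Of 22 tested antigen presentation genes 4 were lower at day 8 (PSMB9, PSMB8, HLA-DMA and HLA-E), none was higher, and 20 of the 22 changes were negative, with a median of -0.15. Over all genes tested, 2.62% were called lower and 6491 of 12034 changes were negative. PSMB9, an inducible subunit of the immunoproteasome, had 10618, 9471, 10013 and 10849.6 at day 8, against 12607, 13504, 13912 and 13177 at day 4, and fell by 0.38 ± 0.07 (SE), adjusted p = 0.000842. PSMB8, a second such subunit, had 8652, 8327, 7989 and 9009 at day 8, against 9949, 10743, 12336 and 10669 at day 4, and fell by 0.36 ± 0.08 (SE), adjusted p = 0.00233. Neither overlapped between days. Of 3 tested probe sets of HLA-E, 2 were lower and 1 was called. The calls of HLA-DMA and HLA-E were lost in 10 of 17 and 7 of 17 alternatives. The count of the list was 2 without day 8 arrays 1, 2 or 3 and without day 4 arrays 2 or 3. It was also 2 with no filter and under median centring. Under quantile normalization the count was 3 and the median shrank to -0.048. Of 35 tested interferon response genes 1 rose and 1 fell, with a median of -0.09. These shares are near the 2.04% and 2.62% of all genes called higher and lower. The antiviral exonuclease ISG20 had 579, 542, 545 and 543 at day 8, against 933, 938, 1018 and 886 at day 4 (log2 change -0.76 ± 0.08 (SE), adjusted p = 1.15e-08), and BST2, the tetherin that holds virions, had 4996 ± 265 at day 8 and 3939 ± 171 at day 4 (log2 change 0.34 ± 0.08 (SE), adjusted p = 0.00328).

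Several regulators of signalling fell. Of 26 tested feedback and early response genes of the MAPK pathway 4 were lower (FOS, NR4A1, IER2 and DUSP10), none was higher and the median was -0.14, against 2.62% of all genes called lower. NR4A1, an orphan nuclear receptor induced by antigen receptor signals, had 232, 272, 230.0 and 221 at day 8, against 589, 491, 473 and 472 at day 4, and fell by 1.03 ± 0.26 (SE), adjusted p = 0.0102. FOS, a subunit of AP-1, had 526, 244, 122 and 17.4 at day 8, against 1134, 605, 372 and 152 at day 4, with wide and overlapping spreads (log2 change -1.54 ± 0.45 (SE), adjusted p = 0.0318), and its call was lost in 9 of 16 alternatives. The early response gene IER2 had 10051 ± 993 at day 8 and 13394 ± 991 at day 4, and the phosphatase DUSP10 had 442 ± 43.1 at day 8 and 562 ± 55.2 at day 4. The count was 2 without day 8 array 3 and without day 4 arrays 1 or 2. In untreated wells none of these 4 was called, and none differed in its day change.

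2 protein kinase C isoforms moved in opposite directions. PRKCE, the epsilon isoform, had 398, 407, 406 and 479.8 at day 8, against 946, 867, 1029 and 963 at day 4, and fell by 1.14 ± 0.21 (SE), adjusted p = 0.000392. PRKCA, the alpha isoform, had 929.9, 955, 924 and 1109 at day 8, against 551, 488, 505 and 481 at day 4 (log2 change 0.93 ± 0.11 (SE), adjusted p = 3.87e-08). Neither overlapped between days, and PRKCA was picked out after its values were seen. The day change differed from untreated wells for PRKCA (0.79, adjusted p = 0.00173) and not by the test for PRKCE (-0.52, adjusted p = 0.668). INPP4B, a phosphatase that removes a phosphoinositide 3-kinase product, had 158, 150.2, 138 and 164 at day 8, against 304, 294, 392 and 361 at day 4, and fell by 1.06 ± 0.23 (SE), adjusted p = 0.0027, while its untreated levels were 976 ± 48.4 at day 8 and 929 ± 22.4 at day 4. PIM1, a kinase gene downstream of STAT factors, had 622, 558, 619 and 679 at day 8, against 1081, 1115, 956 and 864 at day 4, and fell by 0.68 ± 0.11 (SE), adjusted p = 9.9e-05. SOCS2, a feedback inhibitor induced by STAT5, had 959, 736, 778 and 778 at day 8, against 452, 451, 431 and 521 at day 4 (log2 change 0.79 ± 0.10 (SE), adjusted p = 9.44e-08). SOCS2 also rose in untreated wells, to 679 ± 150.3 at day 8, against 408 ± 6.53 at day 4.

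Of 21 tested TGF-beta pathway genes 3 were higher (TGIF1, SMAD7 and SMAD4), against 2.04% of all genes. In untreated wells 3 of 20 were higher (SMAD5, TGIF1 and SMAD4), against 1.11%. TGIF1, a repressor of SMAD targets, had 169.8 ± 18.8 at day 8 and 99.96 ± 11.5 at day 4, and SMAD4, the shared partner of receptor SMADs, had 1898 ± 55.5 at day 8 and 1484 ± 124 at day 4 (SD, n = 4 each). Of 25 tested NF-kB targets 4 were higher, against 2.04% of all genes: LTA, CCL5 and TNF, already counted above, and BIRC2.

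GLUL, glutamine synthetase, had 3399, 3729, 4115 and 2964 at day 8, against 7348, 8535, 7679 and 7848 at day 4, and fell by 1.15 ± 0.24 (SE), adjusted p = 0.00145, on all 3 tested probe sets. The untreated levels of GLUL were 4346 ± 286 at day 8 and 3751 ± 421 at day 4 (SD, n = 4 each), so that of the 4 MJ groups the cobomarsen arrays of day 4 stood highest, and the day changes differed by -1.37 ± 0.33 (SE), adjusted p = 0.0262. EPAS1, the hypoxia-inducible factor HIF-2 alpha, had 1553, 1635, 1465 and 1539 at day 8, against 2973, 3283, 3219.9 and 3059.9 at day 4, and fell by 1.01 ± 0.12 (SE), adjusted p = 4.59e-08. Its day change differed from that in untreated wells by -0.80 ± 0.17 (SE), adjusted p = 0.00527. CA2, a carbonic anhydrase, had 869.8, 964, 805 and 903 at day 8, against 1720.4, 1799.5, 1694 and 1479 at day 4, and fell by 0.91 ± 0.16 (SE), adjusted p = 0.000312. Of 31 tested hypoxia and glycolysis genes 1 was called, NDRG1, which was lower (-0.45, adjusted p = 0.00456). Over all genes tested, 2.62% were called lower, so the count says nothing particular about this list.

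Of 24 tested genes of cholesterol and fatty acid synthesis, 5 were higher (ACSS2, STARD4, MSMO1, LSS and SC5D), none was lower and the median was 0.13, against 2.04% of all genes called higher. MSMO1, a sterol methyl oxidase, had 8340.0, 8258, 8898 and 8960.3 at day 8, against 7179.6, 6899, 6134 and 6754 at day 4 (log2 change 0.35 ± 0.08 (SE), adjusted p = 0.00646). STARD4, a cholesterol carrier, had 5393, 4596, 5209 and 5402 at day 8, against 3663, 3370.0, 4303 and 4157 at day 4 (log2 change 0.41 ± 0.09 (SE), adjusted p = 0.00276), and it rose in untreated wells by 0.42, adjusted p = 0.00491. No member differed in its day change between conditions. Of 3 tested probe sets of LSS, 2 were higher and 1 was called. The calls of LSS, SC5D and ACSS2 were lost in 7 of 17, 9 of 17 and 4 of 16 alternatives, and the count was 2 without day 8 array 1 or day 4 array 2, and 3 without day 8 arrays 3 or 4 or day 4 arrays 3 or 4.

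Other large rises were in genes of varied function. CYP1B1, a cytochrome P450 under control of the aryl hydrocarbon receptor, had 1731, 2079, 1994 and 1527 at day 8, against 892, 811, 732 and 877 at day 4 (log2 change 1.13 ± 0.14 (SE), adjusted p = 3.89e-07), on all 4 tested probe sets. IGFBP3, a carrier of insulin-like growth factors, had 3067, 2686, 3003 and 3137 at day 8, against 1448, 1517, 1470.3 and 1394 at day 4 (log2 change 1.02 ± 0.20 (SE), adjusted p = 0.000939). HS3ST1, a heparan sulfate sulfotransferase, had 405 ± 86.8 at day 8 and 154 ± 16.4 at day 4 (SD, n = 4 each). The neuronal pentraxin gene NPTX1 had 349 ± 67.4 at day 8 and 118 ± 41.1 at day 4. PLD5, an atypical phospholipase D family member, had 417, 552, 371 and 497 at day 8, against 145, 191, 91.8 and 159.9 at day 4, and stood at 17.8 ± 13.6 and 11.2 ± 8.94 in untreated wells of day 8 and day 4. PLD5 was thus detected above a signal of 74.0 in the cobomarsen wells of MJ and not in the untreated ones.

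Further large falls included genes of transport and membrane signalling. SYTL2, a Rab27 effector of secretory granules, had 249.98, 209, 250.3 and 252 at day 8, against 484, 544, 445 and 491 at day 4, and fell by 0.99 ± 0.15 (SE), adjusted p = 1.01e-05. GPR18, a lipid-sensing receptor of lymphocytes, had 175, 129, 156 and 96.2 at day 8, against 215, 293, 314 and 339 at day 4, and fell by 0.99 ± 0.15 (SE), adjusted p = 2.97e-05. AQP3, a water and glycerol channel, had 396, 385, 362 and 409 at day 8, against 701, 721, 658 and 736 at day 4, and fell by 0.83 ± 0.12 (SE), adjusted p = 5.68e-06. None of the 3 overlapped between days. The day changes of SYTL2 and AQP3 differed from those in untreated wells by -1.28, adjusted p = 0.000158 and -1.07, adjusted p = 0.000117. P2RX5, an ATP-gated channel, had 212 ± 23.8 at day 8 and 431 ± 43.5 at day 4, against 925 ± 41.1 and 884 ± 32.8 in untreated wells of day 8 and day 4 (SD, n = 4 each).

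4 genes were called in both conditions with opposite directions: TSC22D1, ENPP2, ASMTL and ITGAE. TSC22D1, a leucine zipper protein induced by TGF-beta, had 3027, 3811, 3796 and 3366 at day 8, against 1803, 1731, 1682 and 2075 at day 4 with cobomarsen, and 213 ± 32.8 at day 8, against 329.8 ± 31.6 at day 4 in untreated wells. It rose by 0.93 ± 0.10 (SE), adjusted p = 2.82e-09, and its other tested probe set changed the opposite way. ENPP2, autotaxin, which makes lysophosphatidic acid, had 3519, 3489, 3742 and 3654 at day 8, against 2832, 2874, 2767 and 2901 at day 4 with cobomarsen, and 245 ± 53.8 at day 8, against 348 ± 20.7 at day 4 in untreated wells. Both genes stood far higher with cobomarsen than without it on both days. ASMTL had 7793 ± 279 at day 8 and 6271 ± 218 at day 4 with cobomarsen, and 3367 ± 106 at day 8 and 4141 ± 267 at day 4 in untreated wells. ITGAE had 2655 ± 90.8 at day 8 and 2158 ± 44.5 at day 4 in untreated wells, the reverse of its order with cobomarsen. ERN1, the stress sensor IRE1 of the endoplasmic reticulum, had 587, 808, 684 and 601 at day 8, against 344, 396, 388 and 347 at day 4 with cobomarsen (log2 change 0.83 ± 0.15 (SE), adjusted p = 0.000286). Of its 3 tested probe sets, 2 had this direction and 1 was called. The chaperones HSPA5 and HSP90B1 fell in untreated wells (-0.28, adjusted p = 0.0201, and -0.30, adjusted p = 0.00893) and were not called with cobomarsen.

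**Figure D4:**
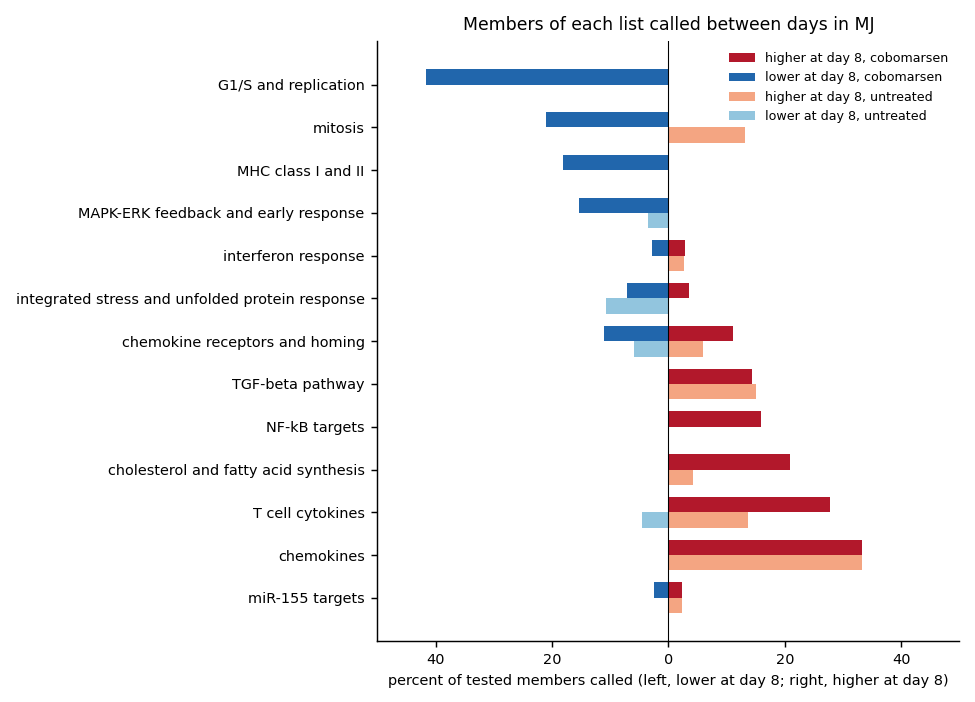
Percent of the tested members of 13 gene lists called between day 8 and day 4 in MJ, higher to the right and lower to the left of 0, with cobomarsen in the upper and untreated in the lower bar of each pair. Replication genes have the longest bar to the left with cobomarsen (15 of 36) and none in untreated wells, and mitotic genes point left with cobomarsen and right in untreated wells.

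The same day comparison with cobomarsen was set against HuT102 and MyLa. It called 2391 of 11728 genes in HuT102 (20.4%) and 3359 of 11074 in MyLa (30.3%), more than the 560 in MJ. The day change differed between MJ and HuT102 for 1440 of 12029 genes (12%), 698 higher in MJ (5.8%) and 742 lower (6.17%). Between MJ and MyLa it differed for 2465 of 11719 genes (21%), 1051 higher in MJ (8.97%) and 1414 lower (12.1%). These comparisons share the MJ arrays with those above, and the lines also differ in the levels of many genes.

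The day change of replication genes differed between MJ and MyLa for 25 of 36 members, all more negative in MJ, with a median difference of -0.58, against 12.1% of all genes. Against HuT102, 8 of 36 had a more positive and 1 a more negative change in MJ, and over all genes these shares were 5.8% and 6.17%. MCM5 had 3299 ± 293 at day 8 and 4416 ± 230.2 at day 4 in HuT102, and 6632 ± 617 at day 8 and 5573 ± 416 at day 4 in MyLa (SD, n = 4 each). It thus fell in HuT102 (-0.42, adjusted p = 1.98e-06) and rose in MyLa (0.25, adjusted p = 0.00245). GINS2 followed the same order, with -0.72, adjusted p = 2.81e-10 in HuT102 and 0.29, adjusted p = 0.00221 in MyLa. Against HuT102, 26 of 38 mitotic genes had a more positive change in MJ and 1 a more negative one, with a median difference of 0.51, beside the same shares over all genes. Against MyLa, 1 was more positive and 10 were more negative in MJ, with a median of -0.13, and over all genes the shares were 8.97% and 12.1%. BUB1B, called in neither direction in MJ with cobomarsen, had 1548 ± 85.1 at day 8 and 2563 ± 94.0 at day 4 in HuT102 (-0.72, adjusted p = 2.58e-13).

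The chemokine CCL17 rose in MJ and HuT102 and fell in MyLa. It had 17239.8 ± 1616 at day 8 and 10652 ± 618 at day 4 in HuT102, and 492 ± 43.5 at day 8 and 1367 ± 223 at day 4 in MyLa (SD, n = 4 each). Its log2 change was 0.69, adjusted p = 0.00166 in HuT102 and -1.44, adjusted p = 2.66e-09 in MyLa. The MJ change exceeded that of HuT102 by 0.88, adjusted p = 0.00815, and that of MyLa by 3.01, adjusted p = 8.2e-14. CCL1 rose in HuT102 (1.58, adjusted p = 6.62e-13), the difference from MJ did not pass the test (-0.47, adjusted p = 0.105), and it had 7.13 ± 4.06 at day 8 and 7.89 ± 5.45 at day 4 in MyLa, under 74.0. The rise of OSM in MJ exceeded the changes of HuT102 by 0.98, adjusted p = 0.014, and of MyLa by 1.06, adjusted p = 0.00442, and OSM was called in neither of those lines. IL3RA rose in HuT102 (1.11, adjusted p = 0.00283) and was not called in MyLa (-0.53, adjusted p = 0.149).

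SYTL2 and AQP3 fell in MJ and rose in HuT102, where AQP3 had 1299 ± 56.7 at day 8 and 585 ± 48.0 at day 4 and SYTL2 had 337 ± 63.8 at day 8 and 169.6 ± 21.8 at day 4 (SD, n = 4 each). The differences were -1.96, adjusted p = 1.91e-12 for AQP3, and -1.90, adjusted p = 3.37e-09 for SYTL2. EVI5, a regulator of Rab11 and cell division, had 332, 305, 349.9 and 280.4 at day 8, against 218, 153, 243 and 145 at day 4 in MJ (log2 change 0.72 ± 0.15 (SE), adjusted p = 0.0012). EVI5 fell in HuT102 (-1.67, adjusted p = 1.07e-12) and in MyLa (-0.80, adjusted p = 2.15e-05), from levels several times those of MJ. The change of TRBC1 was more negative in MJ than in either line, with a difference of -0.92, adjusted p = 7.13e-07 from HuT102, and -0.60, adjusted p = 0.000408 from MyLa. HILPDA, a lipid droplet protein induced by hypoxia, was not called in MJ (-0.38, adjusted p = 0.351) and fell in MyLa to 1172 ± 78.8 at day 8, against 12448 ± 5145 at day 4.

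**Figure D5:**
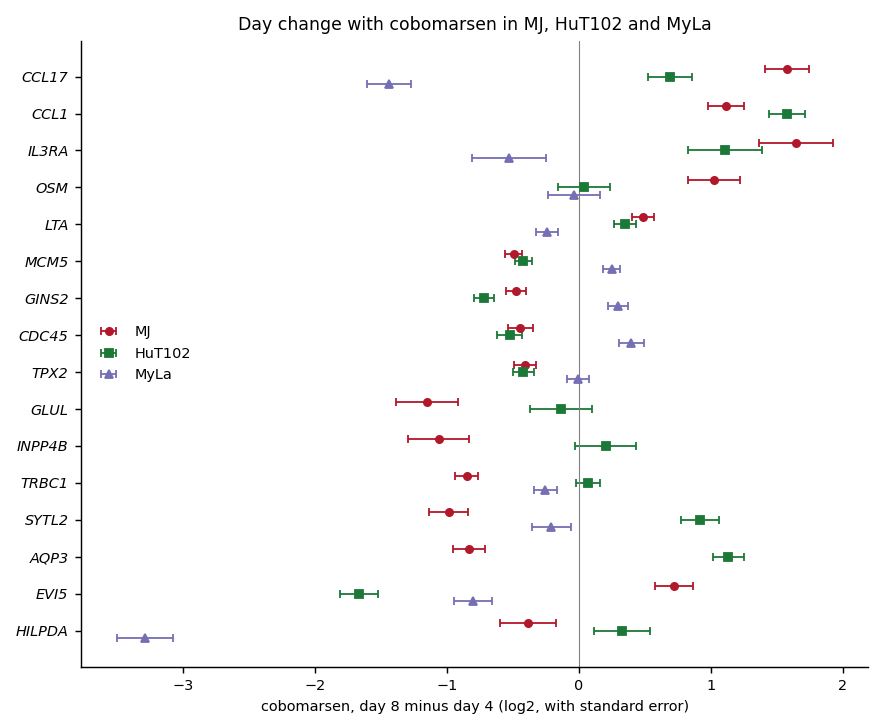
Day 8 minus day 4 with cobomarsen on the log2 scale for 16 genes in MJ (circles), HuT102 (squares) and MyLa (triangles), with standard errors from the fit and no symbol where a gene was not tested in a line. Replication genes lie left of 0 in MJ and HuT102 and right of 0 in MyLa, and AQP3 and SYTL2 lie left of 0 in MJ and right of 0 in HuT102.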

How the data were processed

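Gene expression was measured on Affymetrix arrays in 56 samples of 4 cell lines, which the labels place in 14 groups of 4 by line, day and treatment. The authors deposited linear MAS5 signal (an intensity), per the submitters' processing notes, and the mean after trimming 2% from each end was near 500.1 in every MJ array. The table held 54675 probe sets, of which 41091 had 1 gene symbol, 1801 several, 11721 none and 62 were controls. Each of 19775 genes was represented by its probe set of highest mean over the 56 arrays.

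Signals were analysed as log2(signal + 16), in 1 linear model of group means over the 56 arrays (limma 3.58.1, R 4.3.3, 42 residual degrees of freedom). Variances were moderated with a trend on intensity. Genes were tested where the mean over the arrays compared was at least log2 6.49. Tests were two-sided at 0.05 after Benjamini-Hochberg adjustment, separately for each comparison. No fold is given for a named gene whose mean in either group was under 74.0. The host probe set was tested by exact permutation. Arrays were mapped and figures drawn in Python 3.11.15 with NumPy 2.4.6, pandas 2.3.3 and Matplotlib 3.10.9, and the steps were tested on simulated data.

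The members, gene lists and tests were chosen with earlier results of these data known. Named were the 14 largest rises and falls called without overlap and with a mean signal of at least 200.0, the 8 largest differences from untreated wells in each direction, the 5 largest differences from each line in each direction, and up to 6 called members of each of 32 lists with others of the same role. All members of the miR-155, cytokine and lineage lists and the cell markers could also be named. Not every gene allowed was named. PRKCA, ASMTL, CDKN1A and MKI67 were outside the rule, as were called members of the replication and mitotic lists past the first 6, and were picked after their values were seen. Alternatives were 1 or 64 added before the logarithm, no filter or one at the 75th percentile, quantile normalization, median centring, every probe set on its own, fits of the lines or groups compared only, no trend, and leaving out each array. Precision is limited by the number of arrays and by the brightness of each probe set.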

Additional observations from a re-analysis of the deposited data

Results flagged for a closer look

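Within a group of 4 arrays, 3 named genes had 1 array far from the other 3 by Dixon's ratio of gap to range at the 95% level, a rule that marks about 5% of groups by chance. In the cobomarsen arrays of day 8, these were a signal of 6542 for MCM6, 479.8 for PRKCE and 209 for SYTL2. The array that stood apart was not the same in every case: 6542, 5929, 5981 and 6008 for MCM6, 398, 407, 406 and 479.8 for PRKCE and 249.98, 209, 250.3 and 252 for SYTL2.

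The other results listed here are genes whose day change on the log2 scale differed from that of another set of arrays by the limma test of the difference itself. Against untreated MJ, the replication genes had negative differences, with -0.53 for GINS2, -0.45 for CDK2, -0.38 for POLA1, -0.37 for MCM5, -0.35 for RFC4, -0.34 for MCM2 and -0.33 for TYMS. So did the mitotic genes, with -0.47 for BUB1B, -0.46 for TPX2, -0.44 for BIRC5, -0.43 for CDC20, -0.38 for UBE2C, -0.35 for NUSAP1 and -0.32 for PRC1.

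Among secreted signals the differences were positive for IL3 (1.78), CCL2 (1.58), IL5 (0.88), CCL17 (0.87) and CCL5 (0.63), and negative for IL26 (-1.69), IFNG (-1.52) and TNFSF4 (-0.46). The values of CCL2 and IL26 depend on the 16 added to the signal, because a group mean of each lay under 74.0 and the gene entered the test through its other groups. Positive differences were also found for TSC22D1 (1.54), IGFBP3 (1.06), ACKR3 (1.001), ERN1 (0.94), ENPP2 (0.84), PRKCA (0.79), CYP1B1 (0.77), ASMTL (0.61), HSP90B1 (0.46) and HSPA5 (0.38). Negative ones were found for GLUL (-1.37), SYTL2 (-1.28), TAGAP (-1.21), EEIG1 (-1.19), TRBC1 (-1.08), AQP3 (-1.07), EPAS1 (-0.80), ITGAE (-0.65) and PSMB9 (-0.39).

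For the day change in MJ minus that in HuT102, both with cobomarsen, the differences were positive for EVI5 (2.38), GPR183 (1.68), OSM (0.98) and CCL17 (0.88). They were negative for AQP3 (-1.96), SYTL2 (-1.90), INPP4B (-1.26) and TRBC1 (-0.92). For MJ minus MyLa they were positive for CCL17 (3.01), HILPDA (2.90), IL3RA (2.17), PLD5 (2.02), OSM (1.06), LTA (0.72) and TNF (0.70). They were negative for FURIN (-1.65), CDC45 (-0.84), GINS2 (-0.77), MCM5 (-0.74), TRBC1 (-0.60) and MCM2 (-0.49).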

How the results depend on the processing

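In fits of the MJ arrays alone the day change with cobomarsen called 1400 genes, that in untreated wells 490 and their difference 421. With only the arrays of the groups compared, these were 1459 for cobomarsen and 421 for the difference, against 560, 189 and 156 in the fit of 56 arrays. Median centring took the difference to 58 genes, and testing every probe set on its own took the difference between MJ and MyLa to 4086. Other settings kept each count within 1.5 times of its value in the report. Leaving out 1 array gave 288 to 535 genes for the day change with cobomarsen, 96 to 202 in untreated wells, 66 to 132 for their difference, 1041 to 1440 for MJ against HuT102 and 2012 to 2520 for MJ against MyLa. The host probe set changed by 0.37 to 0.48 when 1 array was left out, with an exact p of 0.0571, no longer under the threshold, wherever a day 8 array was the one left out. Of 106 named genes called between days with cobomarsen, 19 lost the call when 1 was added before the logarithm, 11 with no filter, 12 under median centring, 6 under quantile normalization and 11 to 28 when 1 array was left out, and none changed sign. The count of replication genes called lower stayed at 13 to 24 under the other settings. Causes of these changes were not tested. Genes near background were not tested, and the 4 arrays a group limit what can be called. No paired analysis was possible because the labels give no replicate numbers that groups share (each title holds a number of its own).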

Other observations

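The rules for naming genes also reached genes that belong to no group described above. Among the rises at day 8 with cobomarsen, ITGB8, an integrin chain known to activate latent TGF-beta, had 392, 294, 418 and 178 at day 8, against 129, 117, 93.0 and 137 at day 4 (log2 change 1.26 ± 0.28 (SE), adjusted p = 0.00405 in the limma fit). Its levels in untreated MJ were 246 ± 9.74 at day 8 and 150.2 ± 33.6 at day 4 (SD, n = 4 each). NDRG4, of the NDRG family, had 236 ± 20.6 at day 8 and 101.7 ± 33.8 at day 4, and SLC37A1, a sugar phosphate exchanger of the endoplasmic reticulum, had 221 ± 32.4 at day 8 and 96.5 ± 50.3 at day 4. ACKR3, a scavenging receptor for the chemokine CXCL12, had 4766, 4163, 4278 and 4352 at day 8, against 3019, 2943, 2517 and 3132 at day 4, a change of 0.60, adjusted p = 0.0251. That call was lost in 5 of 17 alternatives.

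TAGAP differed in its day change from untreated wells by -1.21, adjusted p = 0.0262. It had 245, 223, 268 and 178 at day 8, against 343, 359.8, 374 and 352 at day 4 with cobomarsen (change -0.62, adjusted p = 0.0738), and 2297 ± 99.2 at day 8 and 1527 ± 149.9 at day 4 in untreated wells. EEIG1 had 99.9, 141, 84.6 and 104 at day 8, against 235, 177, 196 and 215 at day 4, and fell by 0.86 ± 0.17 (SE), adjusted p = 0.00101. CYP4F2, a fatty acid hydroxylase, had 100.1 ± 56.7 at day 8 and 225 ± 41.6 at day 4, and its call was lost in 3 of 16 alternatives. ODC1, the rate-limiting enzyme of polyamine synthesis, was the 1 of 22 tested ribosome biogenesis and MYC target genes to be called, with 17243, 16769.7, 16906 and 19047 at day 8, against 19775, 20879, 21816 and 19707 at day 4 (change -0.23, adjusted p = 0.0312). Among 17 redox, heme and iron genes, NQO1, a quinone reductase, had 2520.4 ± 100.3 at day 8 and 2007 ± 85.6 at day 4 and rose, and MT2A, a metallothionein, had 28186 ± 1479 at day 8 and 34771 ± 2919 at day 4 and fell. Beside the counts of both lists, 2.04% of all genes tested were called higher and 2.62% lower. SLC3A2, the heavy chain of amino acid exchangers, fell with cobomarsen (-0.46, adjusted p = 0.00691) and in untreated wells (-0.50, adjusted p = 0.0052), and the stress genes ASNS and PPP1R15A fell with cobomarsen (-0.35, adjusted p = 0.0107, and -0.46, adjusted p = 0.00844).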
